A study of Mus musculus with 14 samples.

Results

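The fibroblast growth factor (FGF) genes described here are 10 of the 22798 genes in the deposited table of RNA levels from mouse embryonic stomach epithelium. They were picked by symbol, and all 10 listed symbols were in the table: the ligands Fgf9, Fgf10 and Fgf20, the receptors Fgfr1, Fgfr2 and Fgfr3, and the response genes Spry2, Etv4, Etv5 and Dusp6. The study isolated epithelial cells at stage E14.5 from the forestomach, which becomes squamous, and the hindstomach, which becomes glandular, and asked what loss or gain of the transcription factor GATA4 changes. The 14 libraries were 3 hindstomach controls (genotype G4 cKO control, replicates 2, 3 and 4), 5 hindstomach libraries of genotype G4 cKO mutant, labelled knockout (replicates 1 to 5), 3 forestomach controls (genotype G4 cKI control, replicates 2, 3 and 5) and 3 forestomach libraries of genotype G4 cKI mutant, labelled knock-in (replicates 1, 2 and 4). Both control groups are labelled wild type. The labels name neither the Cre driver behind the conditional alleles nor the strain, and do not say whether animals were pooled. The controls of each region belong to different crosses, so region and cross cannot be told apart.

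FGF ligands are secreted, bind receptor tyrosine kinases together with heparan sulfate, and act largely through the RAS and ERK kinase cascade. In the developing gut and lung, Fgf10 is made by mesenchyme and acts on the epithelial form of Fgfr2, whereas Fgf9 and its close relative Fgf20 signal mainly in the other direction or within the epithelium. Etv4 and Etv5 are ETS transcription factors induced by this cascade, and Spry2 and Dusp6 are induced inhibitors that damp it. In the mouse stomach, Fgf10 signalling is known for its part in the growth and patterning of the glandular epithelium.

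The promoters are shown of the 3 called members that had a RefSeq entry, Fgf10, Fgfr2 and Etv5, and of Fgf9, the member whose promoter held the motif that GATA factors recognise. Of the 10 members, 7 had a promoter in the RefSeq table (build GRCm38.p6, which differs from the build mm9 of the study and was used for these sequences alone), and Fgf20, Fgfr1 and Etv4 did not. Each line gives the 250 bases before the annotated start, read along the gene, and capitals mark the motif. The coordinates are chr13:118714449-118714698 on the plus strand for Fgf10, chr7:130266809-130267058 on the minus strand for Fgfr2, chr16:22439571-22439820 on the minus strand for the first of 2 Etv5 starts, and chr14:58072436-58072685 on the plus strand for Fgf9.
Fgf10: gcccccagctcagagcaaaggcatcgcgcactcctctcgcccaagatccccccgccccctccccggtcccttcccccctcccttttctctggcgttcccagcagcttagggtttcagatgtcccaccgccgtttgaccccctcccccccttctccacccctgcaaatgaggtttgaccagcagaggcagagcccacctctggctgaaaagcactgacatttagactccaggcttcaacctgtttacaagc
Fgfr2: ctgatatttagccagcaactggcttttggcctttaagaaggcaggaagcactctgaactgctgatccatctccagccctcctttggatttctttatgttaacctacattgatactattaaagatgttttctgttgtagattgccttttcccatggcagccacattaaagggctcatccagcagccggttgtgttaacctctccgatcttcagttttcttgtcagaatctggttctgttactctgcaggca
Etv5: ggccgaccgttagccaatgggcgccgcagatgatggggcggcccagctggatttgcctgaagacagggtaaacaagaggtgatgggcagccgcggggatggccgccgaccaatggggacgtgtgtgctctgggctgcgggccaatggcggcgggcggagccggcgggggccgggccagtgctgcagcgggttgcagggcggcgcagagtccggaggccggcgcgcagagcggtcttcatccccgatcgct
Fgf9: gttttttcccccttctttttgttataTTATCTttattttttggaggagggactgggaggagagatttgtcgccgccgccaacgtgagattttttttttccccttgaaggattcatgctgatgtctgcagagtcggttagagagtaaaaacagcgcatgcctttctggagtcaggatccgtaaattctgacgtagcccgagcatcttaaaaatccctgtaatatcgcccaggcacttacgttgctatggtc
The letters AGATAA, the core of the GATA motif, were searched on both strands and occurred in the Fgf9 window alone among these 7 members, 224 to 219 bases before the start on the minus strand. They occurred in 9.99% of the 32851 promoter windows of this length in the table. The letters CCGGAA, a core of the motif of ETS factors such as Etv4 and Etv5, occurred in none of the windows of the 7 members and in 12% of all windows. A match is a string of letters and not a binding site, and its lack says only that these letters are not in this window. The windows of Fgfr2 and Fgf9 held 44% and 44.8% G and C, against 61.2% in Fgf10 and 71.2% in the first Etv5 start.

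Levels were deposited as FPKM, fragments scaled to transcript length and to library size, so levels of different genes can be compared per length but the number of fragments behind a value is unknown. Relative depth, read from the steps between low values, ran from 48.4% to 100% of the deepest library. Gata4 itself stood at 61.55 to 65.66 FPKM in hindstomach controls, and libraries labelled knockout 1 to 5 held 16.87, 19.36, 13.02, 32.06 and 59.63 FPKM. The last of these is near the control level and is written below as the library labelled knockout 5, although its 5 glandular markers summed to 474 FPKM, against 1953 to 6271 FPKM in hindstomach controls. The log2 difference of Gata4 in the hindstomach, -1.37, did not pass (SE 0.47, limma adjusted p = 0.0672). It was -0.38 with the GC slope below as a covariate (limma adjusted p = 0.354). In the forestomach Gata4 was 0.57 to 4.50 FPKM in controls, while libraries labelled knock-in held 0.32 to 1.27 FPKM, so the Gata4 level itself was not raised as that label says. Each direction given for these libraries below rests on the label. Other markers, named after their values were seen, did change there. The summed glandular markers were 11.3 to 84.6 FPKM against 0.366 to 2.41 FPKM in forestomach controls, and of the 5 genes Cym (limma adjusted p = 0.0453) and Muc1 (limma adjusted p = 0.0142) rose. Of 4 squamous markers tested, Krt5, Krt15 and Krt13 fell (limma adjusted p = 0.0278, 0.0337 and 0.0289), with a limma adjusted p of 0.0534 to 0.0572 when the GC slope below was a covariate. The fourth, Trp63, did not pass (-0.1, limma adjusted p = 0.897). Krt5 and Krt15 overlapped between these groups. The sum of all 5 squamous markers overlapped too, at 51.9 to 221 FPKM against 191 to 1897 FPKM in forestomach controls. Libraries also differed in how their levels followed the GC content of transcripts, and this slope is given beside the genes it moves with. Its range was 0.563 to 0.609 log2 per 10% GC in hindstomach controls, -0.575 to 0.489 in the libraries labelled knockout, -0.609 to 0.816 in forestomach controls and -0.841 to -0.091 in the libraries labelled knock-in. Within the group labelled knockout, Gata4 ranked the libraries in the same order as this slope, so the Gata4 level and the slope cannot be told apart there. Epcam, the epithelial adhesion molecule, was at 120.73 to 430.17 FPKM over all 14 libraries. The mesenchyme markers were also present: 10 genes, none at 0 in any library, with summed levels of 40.9 to 132 FPKM in hindstomach controls, 183 to 593 in the libraries labelled knockout, 597 to 956 in forestomach controls and 164 to 485 in the libraries labelled knock-in.

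In the hindstomach labelled knockout, the ligand Fgf20 fell and the ligand Fgf10 and the receptor Fgfr2 rose. Between the control regions, Fgf20 and the ETS factor Etv5 were higher in hindstomach and Fgfr2 was higher in forestomach. Changes are differences in log2(FPKM + 1) with their standard error (SE), tested with limma over 12694 genes and called where the p adjusted by Benjamini and Hochberg was under 0.05. That made 3 of 10 members called in the knockout comparison, 2 up and 1 down, where 13.2% of all genes tested were called, 6.96% up and 6.28% down. It also made 3 of 10 between control regions, 2 higher in hindstomach and 1 lower, where 20.3% of all genes were called, 9.7% higher and 10.7% lower. In the knock-in comparison limma called 0 of 10 members, where 5.85% of all genes were called, 2.62% up and 3.22% down. There, 2 of 10 members and 4629 of all 12694 genes had an unadjusted limma p under 0.05. Median differences over the 10 members were 0.03, -0.48 and -0.13 in the knockout, knock-in and regional comparisons, and over all genes tested -0.08, -0.37 and 0.14. The knockout and regional comparisons share the 3 hindstomach controls, so their values are not independent of each other. All 10 members passed the filter on low values.

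**Figure D1:**
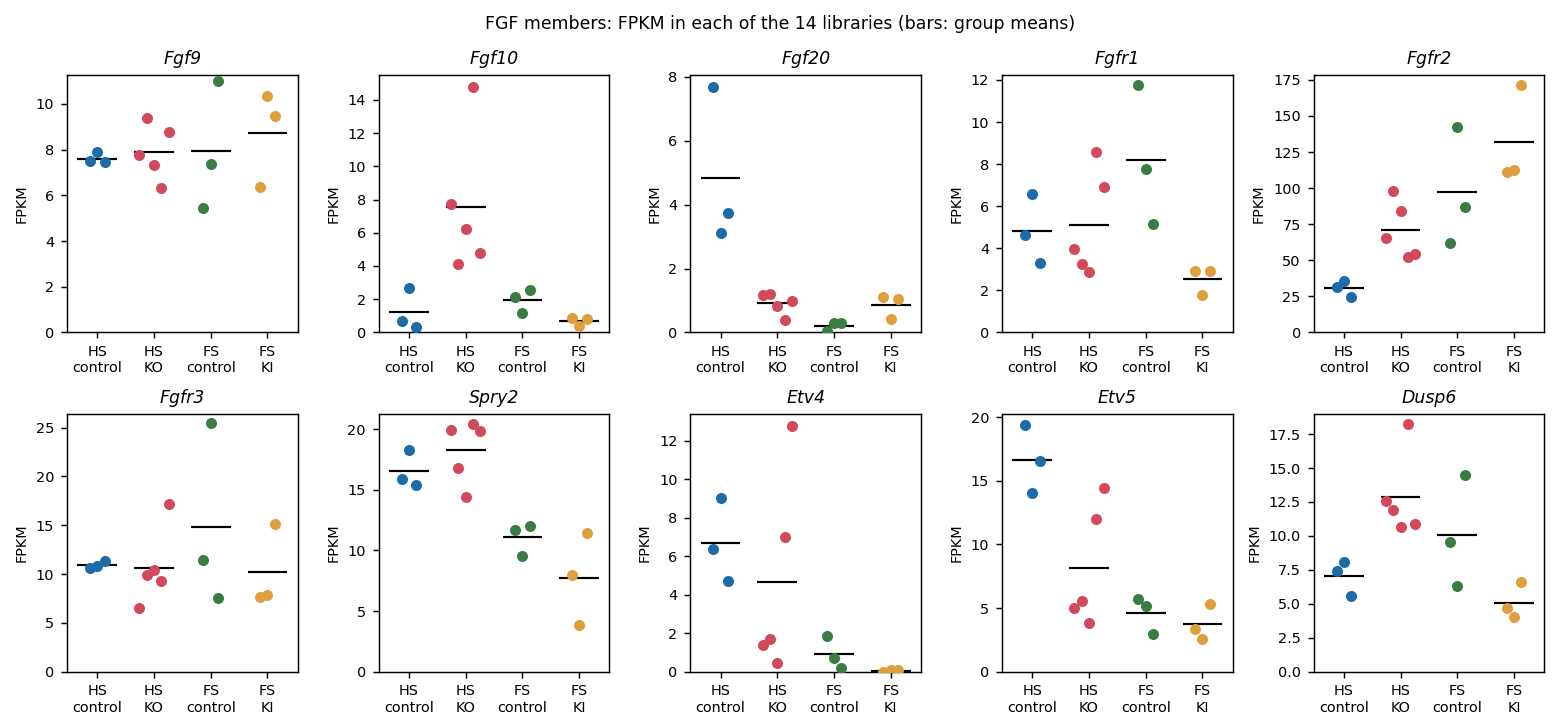
FPKM (vertical axis, from 0) of the 10 FGF members in each of the 14 libraries, 1 point per library, grouped as hindstomach (HS) control, HS labelled knockout (KO), forestomach (FS) control and FS labelled knock-in (KI); horizontal bars are group means. The 3 hindstomach controls lie above every other library for Fgf20 and below every other library for Fgfr2, and the 5 libraries labelled knockout lie above every other library for Fgf10.

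Fgf20 encodes a secreted ligand of the same subfamily as Fgf9. It was at 7.69, 3.10 and 3.73 FPKM in hindstomach controls 2, 3 and 4, while libraries labelled knockout 1 to 5 showed 1.18, 1.2, 0.82, 0.38 and 0.97 FPKM. All 5 of the latter lay below the lowest control, including the library labelled knockout 5, whose Gata4 was near control level. The mean was 4.84 ± 2.49 FPKM in controls (SD, n = 3) and 0.909 ± 0.337 in the libraries labelled knockout (n = 5). The log2 difference was -1.55 (SE 0.26, limma adjusted p = 0.00364), or -1.47 relative to the median of all genes, and the exact two-sided permutation p of 0.0357 is the smallest that 56 splits allow. In the forestomach Fgf20 was at 0.03, 0.29 and 0.29 FPKM in controls 2, 3 and 5, while libraries labelled knock-in 1, 2 and 4 showed 1.11, 0.42 and 1.06 FPKM. Those groups did not overlap either, with the libraries labelled knock-in higher, but the difference of 0.62 did not pass (SE 0.29, limma adjusted p = 0.139 and exact permutation p = 0.1, the smallest that 20 splits allow). Between control regions the difference was 2.21 in favour of hindstomach (SE 0.29, limma adjusted p = 0.000201). With a pseudocount of 0.1 it was 4.09 (limma adjusted p = 0.000403), since a pseudocount of 1 exceeds every forestomach control value. The Fgf20 calls in the knockout and regional comparisons passed under every alternative tried and without any 1 library, with a limma adjusted p of 0.0402 or less.

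Fgf10, the mesenchymal ligand, was at 0.71, 2.70 and 0.33 FPKM in hindstomach controls 2, 3 and 4. It was at 7.75, 4.14, 6.20, 14.81 and 4.79 FPKM in the libraries labelled knockout 1 to 5, each above the highest control. The difference was 1.94 (SE 0.39, limma adjusted p = 0.0102 and exact permutation p = 0.0357), from a mean of 1.25 ± 1.27 FPKM (SD, n = 3) to 7.54 ± 4.30 (n = 5). The call was lost without hindstomach control 2 (1.82, limma adjusted p = 0.0651) or 4 (1.64, limma adjusted p = 0.0829). Mesenchyme markers moved with it: 7 of 10 rose and none fell in the same comparison (median 1.88), with Pdgfra at 1.05 to 8.75 FPKM in controls and 9.28 to 49.58 FPKM in the libraries labelled knockout. Measured against the mean log2 level of the mesenchyme list in the same library, Fgf10 stood at -1.60 ± 0.21 in controls (SD, n = 3) and -1.23 ± 0.34 in the libraries labelled knockout (n = 5). That difference of 0.36 did not pass (exact two-sided permutation p = 0.1429). With a pseudocount of 0.1 in place of 1, Fgf10 itself differed by 2.79 (limma adjusted p = 0.0144). The measure against the list was not run at that setting. In these bulk samples fewer cells of a type and less RNA per cell cannot be told apart.

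In the forestomach Fgf10 was at 2.12, 1.15 and 2.58 FPKM in controls 2, 3 and 5, while libraries labelled knock-in 1, 2 and 4 showed 0.89, 0.37 and 0.78 FPKM. The groups did not overlap, and the difference of -0.79 did not pass (SE 0.44, limma adjusted p = 0.183 and exact permutation p = 0.1). The summed mesenchyme markers of these groups did not overlap either and had the same direction. Measured against the mesenchyme list, Fgf10 was higher in the libraries labelled knock-in by 0.71, which did not pass (exact permutation p = 0.2). Control hindstomach and control forestomach overlapped in Fgf10 (-0.50, SE 0.44, limma adjusted p = 0.456), although the summed mesenchyme markers were higher in every forestomach control. Against the mesenchyme list, Fgf10 stood higher in every hindstomach control, at -1.60 ± 0.21 compared with -3.89 ± 0.39 in forestomach controls (SD, n = 3 each). This difference of 2.30 has an exact permutation p of 0.1, the smallest possible with 3 against 3. It is a measure added after the data were seen. The pseudocount of 1 is close to the Fgf10 levels of the controls and of the libraries labelled knock-in, and far below those of most list genes. It therefore shrinks differences of Fgf10 more than those of the list, and its part in the 0.71 and the 2.30 was not tested.

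**Figure D2:**
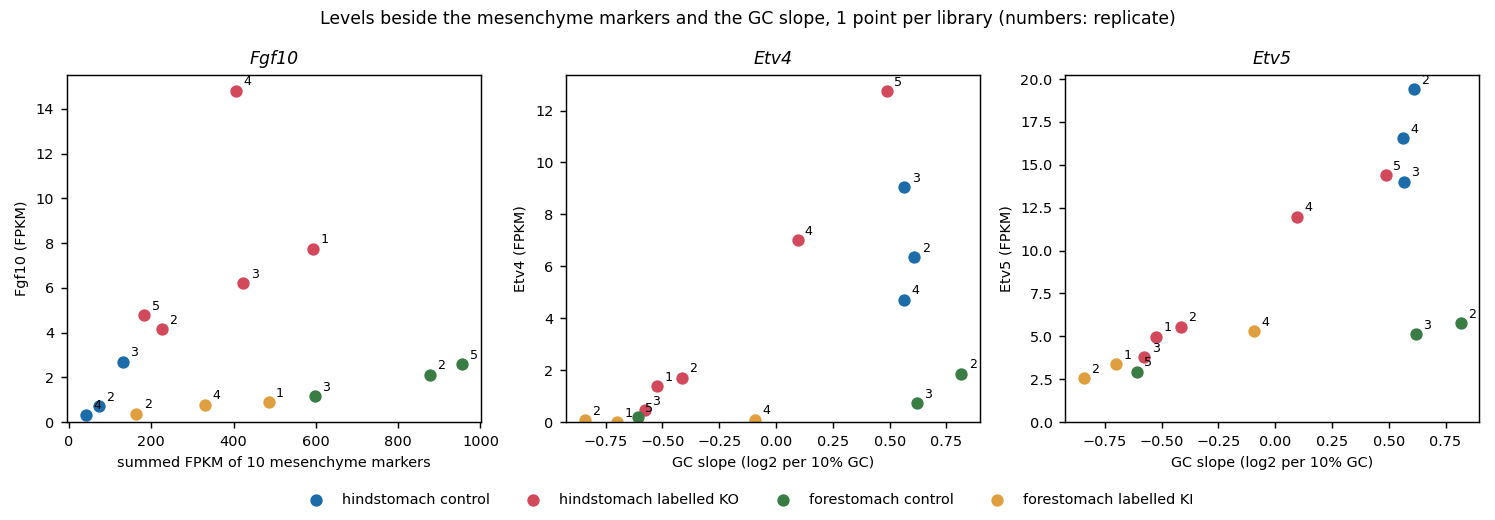
Left, Fgf10 (FPKM) against the summed FPKM of 10 mesenchyme markers; middle and right, Etv4 and Etv5 (FPKM) against the GC slope of the library (log2 per 10% GC); 1 point per library, coloured by group and numbered by replicate. Forestomach controls hold the highest mesenchyme sums (597 to 956) with Fgf10 at 1.15 to 2.58 FPKM, and among the libraries labelled knockout Etv4 and Etv5 are high in 4 and 5, which have the highest GC slopes of that group.

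Fgf9, an epithelial and mesothelial ligand in the mouse gut, was the most even member. Its means were 7.61 ± 0.251 FPKM in hindstomach controls, 7.91 ± 1.22 in the libraries labelled knockout, 7.94 ± 2.83 in forestomach controls and 8.72 ± 2.11 in the libraries labelled knock-in (SD, n = 3, 5, 3 and 3). Every pair of neighbouring groups in that order overlapped. Its differences were 0.04 (SE 0.21), 0.14 (SE 0.24) and -0.01 (SE 0.24) in the knockout, knock-in and regional comparisons, and the limma adjusted p was 0.638 or higher in each.

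Fgfr2 was the most abundant of the 10 members in every library. This receptor tyrosine kinase binds Fgf10 and Fgf7 in its epithelial splice form, which FPKM of the whole gene does not separate from the mesenchymal form. It was at 31.74, 35.95 and 24.44 FPKM in hindstomach controls 2, 3 and 4, while libraries labelled knockout 1 to 5 showed 65.67, 98.17, 83.80, 52.56 and 54.26 FPKM. Each of those 5 exceeded every control, and the difference was 1.16 (SE 0.29, limma adjusted p = 0.0236 and exact permutation p = 0.0357). The call was lost without hindstomach control 2 (1.19, limma adjusted p = 0.0875) or 4 (1.01, limma adjusted p = 0.141), without the library labelled knockout 1 (1.17, limma adjusted p = 0.0508) or 3 (1.09, limma adjusted p = 0.0568), and with the GC slope as a covariate (1.06, limma adjusted p = 0.0532).

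In the forestomach Fgfr2 was at 61.81, 142.53 and 87.05 FPKM in controls 2, 3 and 5, while libraries labelled knock-in 1, 2 and 4 showed 111.00, 112.64 and 171.39 FPKM. These groups overlapped (0.49, SE 0.32, limma adjusted p = 0.242). Every hindstomach control was below every forestomach control (-1.56, SE 0.32, limma adjusted p = 0.00412), with means of 30.7 ± 5.82 and 97.1 ± 41.3 FPKM (SD, n = 3 each). The order of the means, from libraries labelled knock-in (132 FPKM) through forestomach controls and libraries labelled knockout (70.9 FPKM) to hindstomach controls, separated by more than the ranges at the last step alone. The 6 epithelial marker genes summed to 1120 to 1352 FPKM in hindstomach controls, where Fgfr2 was lowest, and to 394 to 883 FPKM in the other 3 groups. These sums lean on Krt8 and Krt18, with means of 221 and 329 FPKM in hindstomach controls and 23.6 to 94.9 in the other groups. Mean Epcam was 382 FPKM in hindstomach controls and 397 in the libraries labelled knock-in. Of the 6, limma called 0 in the knockout comparison and 2 as higher in control hindstomach.

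Fgfr1, the receptor typical of mesenchyme, was called in no comparison as deposited. With the GC slope covariate it was lower in control hindstomach (-0.86, limma adjusted p = 0.0144). It was at 4.62, 6.58 and 3.32 FPKM in hindstomach controls 2, 3 and 4, while libraries labelled knockout 1 to 5 showed 3.97, 3.27, 2.87, 8.59 and 6.89 FPKM (0.01, SE 0.34, limma adjusted p = 0.98). Forestomach controls 2, 3 and 5 held 11.76, 7.75 and 5.13 FPKM, and the libraries labelled knock-in 1, 2 and 4 held 2.91, 1.77 and 2.94 FPKM. None of these reached the lowest control. That difference of -1.33 (SE 0.38, limma adjusted p = 0.0563) passed without forestomach control 5 (-1.60, limma adjusted p = 0.00921) or without the library labelled knock-in 4 (-1.42, limma adjusted p = 0.0395). It was smaller with the GC slope covariate (-0.71, limma adjusted p = 0.152) and without forestomach control 2 (-1.07, limma adjusted p = 0.248). Against the mesenchyme list in the hindstomach, Fgfr1 stood at -0.12 ± 0.28 in controls (SD, n = 3) and -1.69 ± 0.69 in the libraries labelled knockout (n = 5). The difference was -1.57 (exact permutation p = 0.0357, the smallest that 56 splits allow). As Fgfr1 itself differed by 0.01, this value mirrors the rise of the list. By the same measure, added after the data were seen, the difference was 0.17 in the knock-in comparison and 2.17 between control regions (exact permutation p = 0.6 and 0.1). The Fgfr1 transcript has 55.4% GC, against a median of 49.3% over the genes tested.

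Fgfr3 overlapped between all pairs of groups compared and was called in none. Its values ran from 10.58 to 11.36 FPKM in hindstomach controls, 6.51 to 17.17 in the libraries labelled knockout, 7.58 to 25.47 in forestomach controls and 7.70 to 15.11 in the libraries labelled knock-in.

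**Figure D3:**
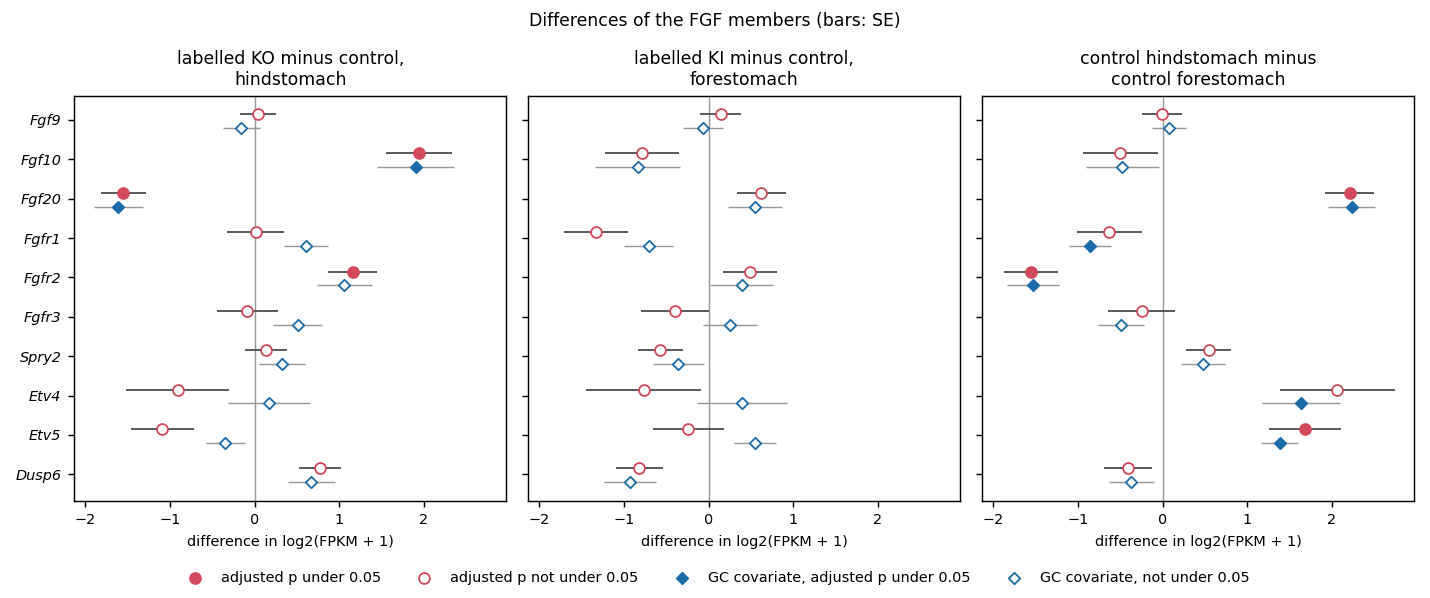
Differences in log2(FPKM + 1) of the 10 members in the 3 comparisons, with SE bars; circles are the values as deposited, diamonds the fit with the GC slope of each library as a covariate, and filled symbols have a limma adjusted p under 0.05. Fgf20 passes in both fits in the knockout (-1.55 and -1.61) and regional (2.21 and 2.23) comparisons, whereas the knockout difference of Etv4 moves from -0.91 to 0.17.

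Among the response genes, Etv5 was at 19.42, 14.01 and 16.55 FPKM in hindstomach controls 2, 3 and 4. Forestomach controls 2, 3 and 5 held 5.75, 5.13 and 2.95 FPKM, all lower. The difference between control regions was 1.68 (SE 0.42, limma adjusted p = 0.0127 and exact permutation p = 0.1), and 1.38 with the GC slope covariate (limma adjusted p = 0.000302). Without hindstomach control 2 it was 1.57 (limma adjusted p = 0.0516). In the libraries labelled knockout 1 to 5 Etv5 was at 4.99, 5.57, 3.79, 11.98 and 14.41 FPKM. The first 3 lay within the forestomach control range and the last 2 came close to or entered the hindstomach control range. The difference of -1.09 did not pass (SE 0.37, limma adjusted p = 0.0666 and exact permutation p = 0.0714). It passed without the library labelled knockout 5 (-1.32, limma adjusted p = 0.0171) and shrank to -0.35 with the GC slope covariate (limma adjusted p = 0.34). The GC slopes of the libraries labelled knockout 1 to 5 were -0.523, -0.416, -0.575, 0.095 and 0.489, and the part of this slope in the Etv5 levels was not tested. Libraries labelled knock-in held 3.38, 2.57 and 5.30 FPKM, overlapping forestomach controls (-0.24, SE 0.42, limma adjusted p = 0.652).

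Etv4, the relative of Etv5, split the libraries labelled knockout in the same way. Its values were 1.38, 1.71, 0.45, 7.00 and 12.75 FPKM in 1 to 5, against 6.36, 9.04 and 4.72 FPKM in hindstomach controls 2, 3 and 4. The first 3 lay below every control, the fourth lay within the control range and the library labelled knockout 5 lay above it. The difference of -0.91 did not pass (SE 0.61, limma adjusted p = 0.264), was -1.35 without the library labelled knockout 5 (limma adjusted p = 0.053), -0.54 without 3 (limma adjusted p = 0.492) and was 0.17 with the GC slope covariate (limma adjusted p = 0.853). The Etv4 transcript has 58.7% GC, more than 94% of the genes tested. In forestomach controls 2, 3 and 5 Etv4 was at 1.86, 0.73 and 0.18 FPKM, and in the libraries labelled knock-in 1, 2 and 4 it was listed at 0 and measured at 0.08 and 0.09 FPKM. The forestomach difference was -0.77 (SE 0.68, limma adjusted p = 0.381). Every hindstomach control exceeded every forestomach control, with a difference of 2.06 between groups (SE 0.68, limma adjusted p = 0.0513), and this passed with the GC slope covariate (1.63, limma adjusted p = 0.0126).

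Dusp6 encodes a phosphatase that inactivates ERK. It was at 7.44, 8.08 and 5.6 FPKM in hindstomach controls 2, 3 and 4, while libraries labelled knockout 1 to 5 showed 12.54, 11.94, 10.68, 18.28 and 10.85 FPKM. All 5 exceeded every control, yet the difference of 0.77 did not pass as deposited (SE 0.25, limma adjusted p = 0.0585 and exact permutation p = 0.0357). It passed without the library labelled knockout 5 (0.82, limma adjusted p = 0.0388). Forestomach controls 2, 3 and 5 held 9.54, 6.28 and 14.47 FPKM, and the libraries labelled knock-in 1, 2 and 4 held 4.69, 4.01 and 6.57 FPKM, which overlapped (-0.82, SE 0.28, limma adjusted p = 0.0847). Without the library labelled knock-in 4 that difference was -0.99 (limma adjusted p = 0.04). In the knockout comparison of values as deposited, the difference of Dusp6 was positive and those of Etv4 and Etv5 negative, although that of Etv4 turned positive with the GC slope covariate.

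Spry2, a cytoplasmic inhibitor of receptor tyrosine kinase signalling, was steady in the hindstomach, at 15.44 to 18.25 FPKM in controls and 14.40 to 20.44 FPKM in the libraries labelled knockout (0.13, SE 0.25, limma adjusted p = 0.693). Its 3 hindstomach control values lay above those of forestomach controls, 9.54 to 12 FPKM, but the difference of 0.54 did not pass (SE 0.27, limma adjusted p = 0.196). The libraries labelled knock-in 1, 2 and 4 held 7.94, 3.82 and 11.43 FPKM (-0.57, SE 0.27, limma adjusted p = 0.146), and the difference was -0.87 without 4 (limma adjusted p = 0.0317) but -0.19 without 2 (limma adjusted p = 0.531) and -0.36 with the GC slope covariate (limma adjusted p = 0.488). Counting members whose groups did not overlap, 3 were higher and 1 was lower of 10 in the knockout comparison, where 42.6% of all genes separated, 17.7% higher and 24.9% lower. In the knock-in comparison 1 was higher and 3 were lower, where 20% of all genes separated, 7.78% higher and 12.2% lower. Between control regions 4 were higher and 1 was lower in hindstomach, where 41.4% of all genes separated, 23% higher and 18.4% lower.

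The rest of the pathway was read from a list of 65 further genes, of which 47 passed the filter. Among those 47, limma called 7 up and 2 down in the knockout comparison (19 did not overlap), 2 up and 2 down in the knock-in comparison (15 did not overlap), and 6 higher and 11 lower in control hindstomach (22 did not overlap). Over all genes tested, 13.2%, 5.85% and 20.3% were called and 42.6%, 20% and 41.4% did not overlap in these comparisons. The medians over the 47 were -0.04, -0.49 and 0.00 respectively, beside -0.08, -0.37 and 0.14 over all genes tested. With the GC slope covariate the counts were 7 up and 2 down, 1 up and 2 down, and 11 higher and 16 lower, where 1555, 696 and 5327 of all 12694 genes were called, the last as 2814 higher and 2513 lower.

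Of the 6 other FGF family genes measured, not all of which encode receptor ligands, 4 were higher in control forestomach, a direction called for 10.7% of all genes. In the same comparison 7 of 10 mesenchyme markers (median -3.14) and 4 of 5 mesothelium markers were also higher in control forestomach. The remaining mesothelium marker, Msln, was higher in control hindstomach (3.98, limma adjusted p = 0.000298). The part of these markers in the levels of these FGF family genes was not tested. Fgf7, the second mesenchymal ligand of epithelial Fgfr2, stood at 0.34 ± 0.236 FPKM in hindstomach controls and 5.0 ± 1.24 in forestomach controls (SD, n = 3 each; -2.16, SE 0.25, limma adjusted p = 9.78e-05). Fgf10, by comparison, had overlapping levels in these groups. Fgf5 was lower in hindstomach controls (-1.81, SE 0.21, limma adjusted p = 9.78e-05) and fell in the libraries labelled knock-in (-1.34, SE 0.21, limma adjusted p = 0.00556), from 3.45 ± 1.23 to 0.736 ± 0.345 FPKM. Fgf13, an intracellular member of the family that binds no receptor, rose in the libraries labelled knockout by 1.19 (SE 0.28, limma adjusted p = 0.0183), from 6.27 ± 1.38 (n = 3) to 15.8 ± 3.90 FPKM (n = 5), and had a limma adjusted p of 0.0517 with the GC slope covariate.

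Both further receptors measured were higher in control hindstomach. Fgfr4 was at 6.40 ± 0.365 FPKM in hindstomach controls and 0.140 ± 0.116 in forestomach controls (SD, n = 3 each; 2.70, SE 0.44, limma adjusted p = 0.000942). It fell in the libraries labelled knockout to 1.57 ± 1.96 FPKM (n = 5; -1.79, SE 0.39, limma adjusted p = 0.0156), and still passed with the GC slope covariate (-1.16, limma adjusted p = 0.0452). Values of Fgfr4 in these 5 libraries ran from 0.28 to 4.98 FPKM with a median of 0.58, against 6.05 to 6.78 FPKM in hindstomach controls. Fgfrl1, a receptor without a kinase domain, was higher in control hindstomach by 1.51 (SE 0.32, limma adjusted p = 0.00506).

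Feedback and response genes moved in both directions. Etv1, the third factor of the Etv4 and Etv5 group, rose in the libraries labelled knockout from 2.47 ± 1.63 to 9.12 ± 4.09 FPKM (1.55, SE 0.34, limma adjusted p = 0.0156), whereas the differences of Etv4 and Etv5 as deposited were negative. Flrt2, a membrane protein that interacts with FGF receptors, rose by 1.90 (SE 0.31, limma adjusted p = 0.00382), and Spred1, an inhibitor of RAS signalling, by 0.97 (SE 0.27, limma adjusted p = 0.0348). The relative Flrt3 was higher in control hindstomach by 1.44 (SE 0.28, limma adjusted p = 0.00324), and Il17rd, a membrane inhibitor of FGF signalling, fell in the libraries labelled knock-in (-0.90, SE 0.24, limma adjusted p = 0.0456). With the GC slope covariate Spred1 (limma adjusted p = 0.087) and Il17rd (limma adjusted p = 0.0889) no longer passed.

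Of 12 genes for heparan sulfate and ligand binding, 5 were lower in control hindstomach, where 10.7% of all genes and 7 of 10 mesenchyme markers were lower, led by the sulfatase Sulf1 (-2.99, SE 0.49, limma adjusted p = 0.00103) and the proteoglycan Gpc4 (-1.55, SE 0.31, limma adjusted p = 0.00336). Sulf1 rose in the libraries labelled knockout (1.67, SE 0.44, limma adjusted p = 0.0303), in which 7 of 10 mesenchyme markers rose too, as did the sulfotransferase Hs2st1 (0.75, SE 0.16, limma adjusted p = 0.0133), while the secreted carrier Fgfbp1 fell (-1.37, SE 0.38, limma adjusted p = 0.0352). With the GC slope covariate Sulf1 (limma adjusted p = 0.054) and Fgfbp1 (limma adjusted p = 0.133) no longer passed in the knockout comparison. Among adaptors Frs2, which couples the receptors to RAS, was higher in control hindstomach (0.73, SE 0.17, limma adjusted p = 0.00926) and rose in the libraries labelled knock-in (0.75, SE 0.17, limma adjusted p = 0.0328). The 9 RAS and ERK cascade genes held no call by limma in any comparison. Among the most abundant uncalled genes in the knockout comparison, the proteoglycan gene Gpc3 had a difference of 0.93 (limma adjusted p = 0.0822) and the RAS gene Nras one of 0.16 (limma adjusted p = 0.367).

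**Figure D4:**
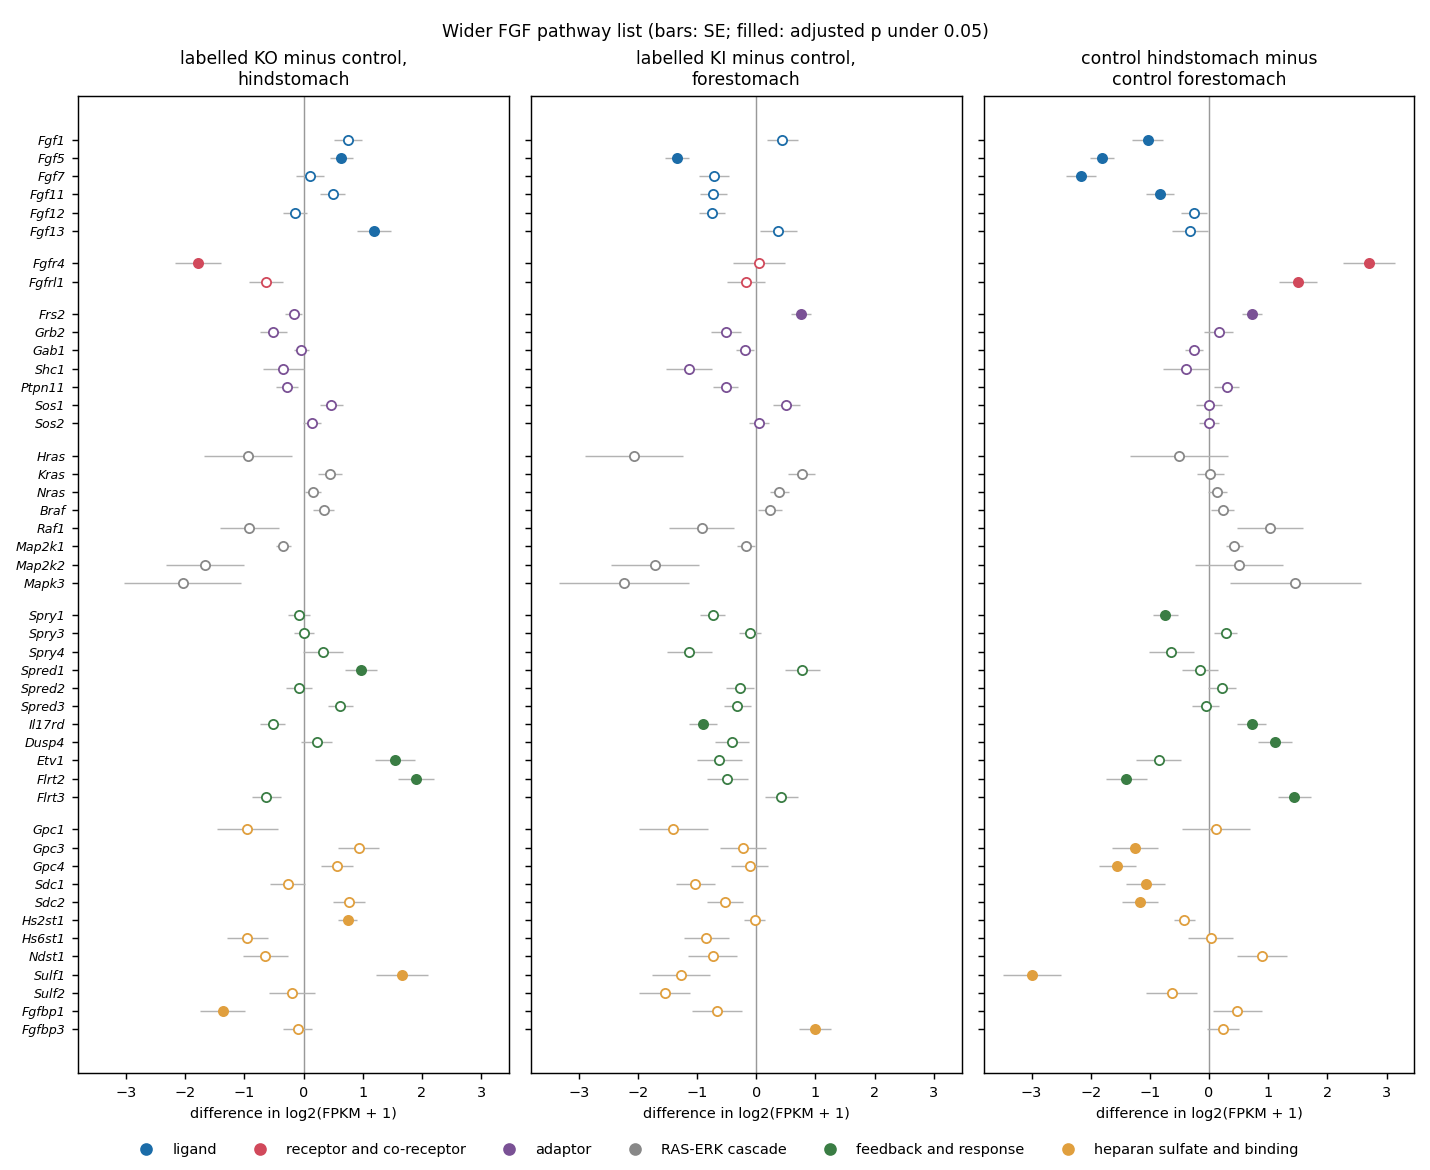
Differences in log2(FPKM + 1) with SE bars for measured genes of the wider FGF pathway list, coloured by role, in the 3 comparisons; filled points have a limma adjusted p under 0.05. FGF family genes (role ligand, though not all encode receptor ligands) and heparan sulfate genes lie mostly below 0 in the regional comparison. There, 4 of 6 and 5 of 12 are called lower, while both receptors are called higher.

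Likeness of pattern was measured as Pearson's r of log2(FPKM + 1) over the 14 libraries, which share groups, depth and the GC slope, so r is a description only. The genes most like Fgf20 were Tmc7, a transmembrane channel-like gene (r = 0.94), and Dennd2d (r = 0.94). Tmc7 stood at 20.0 ± 2.47 FPKM in hindstomach controls, 5.09 ± 1.15 in the libraries labelled knockout, 2.92 ± 1.0 in forestomach controls and 4.96 ± 0.908 in the libraries labelled knock-in. Fgf10 was most like Mkx, a homeobox factor of tendon and other mesenchyme (r = 0.98). Fgfr2 was most like Nr2c1 (r = 0.96) and Etv4 most like Gabre (r = 0.99). Group means were 0.353 to 1.28 FPKM for Gabre and 0.367 to 3.3 FPKM for Mkx, low beside the pseudocount of 1. Second closest to Etv5 was Dusp9, another ERK phosphatase (r = 0.98), at 19.8 ± 1.70 FPKM in hindstomach controls, 4.88 ± 4.59 in the libraries labelled knockout, 1.36 ± 1.10 in forestomach controls and 0.581 ± 0.417 in the libraries labelled knock-in. Fgf9 had no close match, its highest r being 0.83 with Sltm.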

How the data were processed

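Epithelial cells of mouse stomach at embryonic day 14.5 gave 14 libraries in 4 groups, made with the NEBNext Ultra II Directional kit, per the labels' protocols. The authors deposited FPKM values per gene on build mm9, per the submitters' processing notes; neither those notes nor the labels name the aligner, the quantifier or the annotation. Because no counts were given, the depth behind a value is unknown and no count test was run. FPKM sum to different totals (242910 to 487908), so a shift in a few abundant genes can move all others.

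The table held 22906 entries, of which 108 exact duplicates were dropped. Genes at 1 FPKM or more in at least 3 libraries (12694 of 22798) were fitted as log2(FPKM + 1), with a pseudocount of 1 that understates changes of low genes, by limma 3.58.1 with statmod 1.5.0 in R 4.3.3 (group means over all 14 libraries, trended and robust variance, Benjamini-Hochberg adjustment over all 12694). Exact two-sided permutation tests used SciPy 1.17.1. The limma fit alone was tried on simulated data with known changes, with independent noise per gene and no shared GC slope. GC content came from GENCODE M21 transcripts (12616 genes matched, 99.39%), a build other than the authors' own. Alternatives changed the pseudocount, the filter, the scaling, the samples fitted, the variance trend, library weights, a GC slope covariate, a replicate block and the libraries kept; the level against a marker list and the difference between the hindstomach and forestomach effects were added after the data were seen.

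All 10 members are named; of the wider list, at most the 8 called genes with the smallest adjusted p per comparison and the 3 uncalled genes of highest mean FPKM; and, for members, genes among the 3 of highest Pearson's r. One gene that this rule names is not reported here and is left out of the plot of the wider list, though counts over the list include it. The members and lists were chosen with earlier results of these data known. Whether replicates are separate animals is not stated in the labels; p-values therefore cover only the variation among these libraries, possibly technical. No 2 libraries were duplicates: at most 0.8% of values were equal in a pair. The labels do not say whether equal replicate numbers pair the samples, and the main fit used no pairing.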

Additional observations from a re-analysis of the deposited data

Results flagged for a closer look

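The change of 3 members in the hindstomach labelled knockout differed from their change in the forestomach labelled knock-in, each against its own controls, in a limma contrast added after the data were seen. The difference of the 2 changes was 2.74 for Fgf10 (log2, SE 0.59, adjusted p = 0.0126), -2.17 for Fgf20 (SE 0.38, adjusted p = 0.0056) and 1.59 for Dusp6 (SE 0.38, adjusted p = 0.0185), where 10.8% of all genes tested were called. Each of the 3 had opposite signs in the 2 tissues, 1.94 and -0.79 for Fgf10, -1.55 and 0.62 for Fgf20, and 0.77 and -0.82 for Dusp6. The 10 mesenchyme markers also had median log2 differences of opposite sign in the 2 comparisons (1.88 and -1.29). Limma called 7 of the 10 up and 0 down in the hindstomach, and 0 up and 1 down in the forestomach. Against the mesenchyme list, Fgf10 differed by 0.36 in the hindstomach and 0.71 in the forestomach (exact permutation p = 0.1429 and 0.2). Both used a pseudocount of 1, and their sign at another pseudocount was not tested. With a pseudocount of 0.1, Fgf10 itself differed by 2.79 and -1.39. The part of these markers in the Fgf20 and Dusp6 differences was not tested.

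Among the 5 libraries labelled knockout, 3 of 28 values examined stood apart from the other 4 libraries, where chance flags about 1 in 20 groups, here 1.4. Dusp6 was at 18.28 FPKM in the library labelled knockout 4. In the library labelled knockout 5, whose Gata4 was near control level, Krt8 was at 129.98 FPKM and the 5 glandular markers summed to 474.44 FPKM. Both lay above the other 4 libraries of the group and below every hindstomach control, where Krt8 was at 180.06 to 243.71 FPKM and the glandular sum was 1953 to 6271 FPKM.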

How the results depend on the processing

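Of 500 values of single members under the alternatives, 432 kept direction and side of the threshold, 11 lost and 28 gained a call, and 29 changed sign, none of them a call. Fgf20 passed under every alternative run in the knockout and regional comparisons. Members called in the knockout comparison (3) became 5 with quantile normalization, 6 with array weights and 1 with the replicate block, and 1 to 5 when 1 library was left out. In the knock-in comparison (0) they became 4 with array weights and 0 to 3 without 1 library, and between control regions (3) 5 with quantile normalization, 7 with array weights and 5 with the GC slope covariate. All genes called in the knockout comparison (1680) became 4991 with the compared groups alone, 9780 with array weights, 234 with the replicate block and 267 to 4124 without 1 library. In the knock-in comparison (742) they became 489 with quantile normalization, 0 with the compared groups alone, 9262 with array weights, 19 with the block and 118 to 7015 without 1 library; between regions (2583) they became 1431 with the compared groups alone, 4405 with array weights, 5327 with the GC slope covariate, 1369 with the block and 1532 to 2680 without 1 library. Rescaling to a common FPKM sum changed the split of higher and lower calls from 883 and 797 to 1291 and 648 (knockout) and from 333 and 409 to 576 and 177 (knock-in), and moved the median of all genes from -0.08 to 0.16 and from -0.37 to -0.04. With the block, Fgf10 (1.92, limma adjusted p = 0.0879) and Fgfr2 (1.27, limma adjusted p = 0.0778) in the knockout comparison and Etv5 between regions (1.62, limma adjusted p = 0.0707) did not pass. After the group mean of each gene was subtracted, the deviations of same-numbered libraries correlated at 0.03, 0.06 and -0.25 (knockout), -0.65 (knock-in, 1 shared number) and 0.28 and -0.14 (regions). These pairs are too few to tell whether the numbers pair the samples. Sign changed in the knockout comparison for Fgf9 (GC covariate -0.16; -0.02 to 0.11 without 1 library), Fgfr1 (array weights -0.25; -0.19 to 0.22), Fgfr3 (rescaled 0.17, quantile 0.17, GC covariate 0.51, block 0.06; -0.27 to 0.05) and Etv4 (GC covariate 0.17). In the knock-in comparison it changed for Fgf9 (array weights -0.05, GC covariate -0.07; -0.07 to 0.38), Fgfr2 (array weights -0.04), Fgfr3 (GC covariate 0.25; -0.76 to 0.06), Etv4 (GC covariate 0.39) and Etv5 (rescaled 0.10, quantile 0.35, GC covariate 0.55). Between regions it changed for Fgf9 (array weights 0.10, GC covariate 0.07, block 0.15; -0.22 to 0.23) and Fgfr3 (-0.61 to 0.21). The cause of these shifts was not tested. Values near 0, such as Etv4 and Fgf20 in forestomach, are limited by a depth that FPKM does not give.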
